A study of Mus musculus with 8 samples.

Results

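The collagen genes were followed through islet inflammation in mice given diabetogenic T cells. Members were all genes whose symbol in the platform annotation reads Col, a number, a, a number, and whose probe set carries that symbol alone. This gave 42 of the 18193 genes with such a probe set, represented by 82 probe sets, and the brightest of a gene, by its mean on the 8 arrays, stood for it. By chain type these were 11 fibrillar, 8 basement membrane and 5 microfibrillar collagen genes, 9 genes of the FACIT type (collagens that sit on the surface of fibrils), 4 transmembrane collagens and 5 others. Of the 42, 39 passed the filter on dim values and were tested; Col9a2, Col16a1 and Col25a1 did not pass. Col6a6 and Col28a1 were not analysed here.

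Expression had been measured on 8 Affymetrix arrays, each hybridised with amplified RNA pooled from laser-captured islets of 5 NOD.Scid mice, which carry the background of the diabetes-prone NOD strain but lack mature T and B cells of their own and do not become diabetic spontaneously. One group was untreated (day 0, 1 array). The diabetogenic arm received CD4+ T cells bearing the transgenic BDC2.5 receptor, which recognises a beta cell antigen, and was sampled on days 3, 4 and 8. The protected arm received the same cells and 2 injections of a monoclonal antibody against interferon-γ, and was sampled on days 3, 4, 5 and 8. All groups share the NOD.Scid host, which keeps its own macrophages, fibroblasts and vessels. No group received a control antibody, the labels give no age or sex, and the design text states that diabetogenic islets of day 5 were too swollen to be dissected. Each arm and day was a single pool on a single array, so error could be estimated only by fitting arms and days together. Pooling leaves no spread between mice, and the p-values measure only the spread between these arrays, which may be technical.

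Collagens are proteins of 3 chains wound into a triple helix. Fibrillar collagens I, III and V are laid down by fibroblasts and related stromal cells and assemble into the cables of interstitial tissue. Collagen VI forms beaded microfibrils around cells and beside basement membranes. Collagen IV is the network of basement membranes, which in the islet belong to the vessels and to the capsule at the islet edge; collagens XV and XVIII are proteoglycans of that zone.

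Before the collagen values, the arrays themselves differed in ways that bear on them. The islet hormone genes Ins2, Gcg and Iapp were bright throughout (intensities of 3409 to 6359, 52.8 to 2390 and 99.7 to 1143), with the lowest Gcg and Iapp on the day 4 diabetogenic array. That array had only 0.9% of its probe sets at 8 times its median or more, against 2.06% to 5.35% on the other 7. In rank over all probe sets the day 8 diabetogenic array correlated with every other array at 0.136 to 0.278, and that of day 4 at 0.169 to 0.401; the highest correlation of any pair was 0.803, between the day 3 arrays. Spiked control probe sets had a median intensity of 1.48 to 2.29 on the untreated and day 3 arrays and of 551 to 1712 on the 5 arrays of days 4, 5 and 8. The ratio of 3′ to 5′ probe set intensity, a measure of RNA integrity and amplification, also moved with the days. For Actb it was 1.86 untreated, 5.54 and 5.01 on day 3 (diabetogenic, then protected), 2.25 and 9.24 on day 4, 24.2 on protected day 5, and 13.8 and 10.5 on day 8. For Gapdh it was 5.14 untreated, 9.11 and 8.49 on day 3, 2.78 and 10.5 on day 4, 6.401 on protected day 5, and 19.0 and 10.8 on day 8. Actb was thus highest on the 3 arrays with the highest collagen sums, and the part of these ratios in the collagen results was not tested. Day 8 against day 3 also crosses the division in spiked controls, which cannot be told apart from time, while day 8 against day 4 does not. Most collagen probe sets were dim: 26 of the 39 tested stayed below 4 times the array median on all arrays, and 31 had a mean intensity under 10.

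Collagen signal rose late, and it rose through few genes. Summed over the 42 genes, intensity was 220 untreated, 221 and 246 on the day 3 arrays (diabetogenic, then protected), 239 and 274 on day 4, 561 on the day 5 protected array, and 787 and 1240 on the day 8 arrays (diabetogenic, then protected). Col1a1, Col1a2, Col3a1, Col5a1, Col6a1 and Col6a2 carried this increase: their own sum went from 41.5 on the untreated array to 536 and 1002 on the arrays of day 8. The sum of the other 36 genes stayed between 168 and 251. These 6 are the genes that exceeded a 4-fold difference between days 8 and 3, so their sum is a description and not a test. Because the samples were whole islets, more cells of a type and more RNA per cell cannot be told apart.

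**Figure D1:**
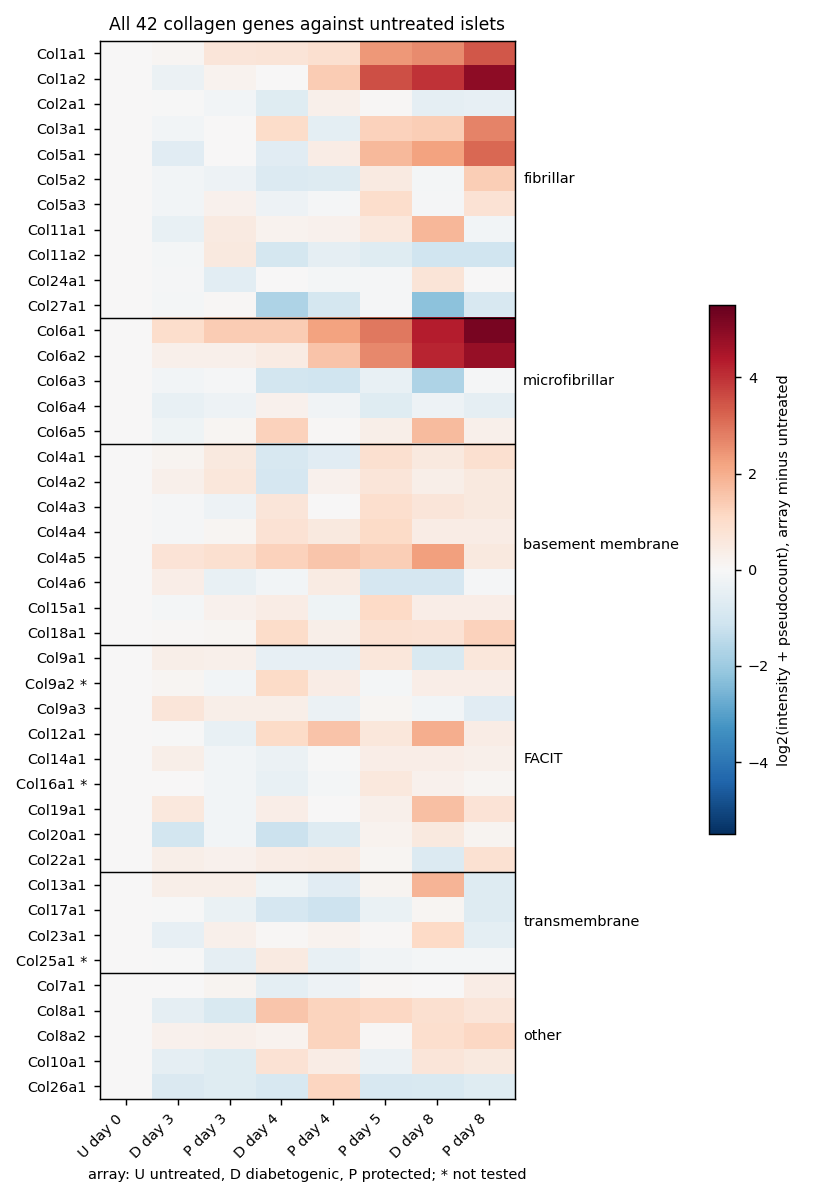
All 42 collagen genes (rows, grouped by type; asterisks mark the 3 genes not tested) on the 8 arrays (columns), as log2(intensity + 2.155) minus the value on the untreated array. The strong colour of Col1a1, Col1a2, Col5a1, Col6a1 and Col6a2 on days 5 and 8 stands against small or scattered differences in the basement membrane genes.

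Type I collagen, the main fibril of interstitial tissue, is built from the products of Col1a1 and Col1a2. Col1a2 had an intensity of 12.01 untreated, 9.34 and 13.8 on the day 3 arrays (diabetogenic, then protected), 12.4 and 35.2 on day 4, 161 on the day 5 protected array, and 223 and 428 on day 8. Both day 3 arrays were thus near the untreated level, the day 4 protected array was already above it, and the 3 arrays of days 5 and 8 were far above all others. Against untreated islets Col1a2 was 15.9-fold higher on the diabetogenic and 30.4-fold higher on the day 8 protected array, on the scale of intensity plus 2.155, which understates the change of dim genes. Col1a1 read 3.58 untreated, 4.01 and 7.03 on day 3 (diabetogenic and protected), 7.25 and 8.46 on day 4, 27.9 on protected day 5, and 32.6 and 58.5 on day 8. Its order across the arrays from day 5 on was that of Col1a2. The second Col1a1 probe set was dim everywhere (mean intensity 1.82), so the Col1a1 result rests on 1 probe set. A second Col1a2 probe set, with a mean of 11.9, was highest on the day 8 protected array (42.3) but read only 9.26 on the diabetogenic array of that day, below its untreated value of 9.73.

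Col3a1, which encodes the homotrimeric collagen III of loose and healing tissue, followed less evenly. It read 15.7 untreated, 13.9 and 15.9 on day 3, 33.6 and 10.3 on day 4, 41.2 on protected day 5, and 43.7 and 116 on day 8. On day 4 the diabetogenic array was the higher one, the reverse of the order seen for Col1a2, and only the day 8 protected array stood clear of the rest. The second Col3a1 probe set was dim (mean intensity 4.38). Col5a1, whose collagen V chain nucleates type I fibrils, read 2.73 untreated, 1 (the floor of the table) and 2.75 on day 3, 1 and 4.37 on day 4, 14.4 on protected day 5, and 20.5 and 41.2 on day 8. A second Col5a1 probe set of like brightness gave 2.85 untreated, 18.5 on protected day 5, and 17.3 and 34.5 on day 8, the same late increase.

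**Figure D2:**
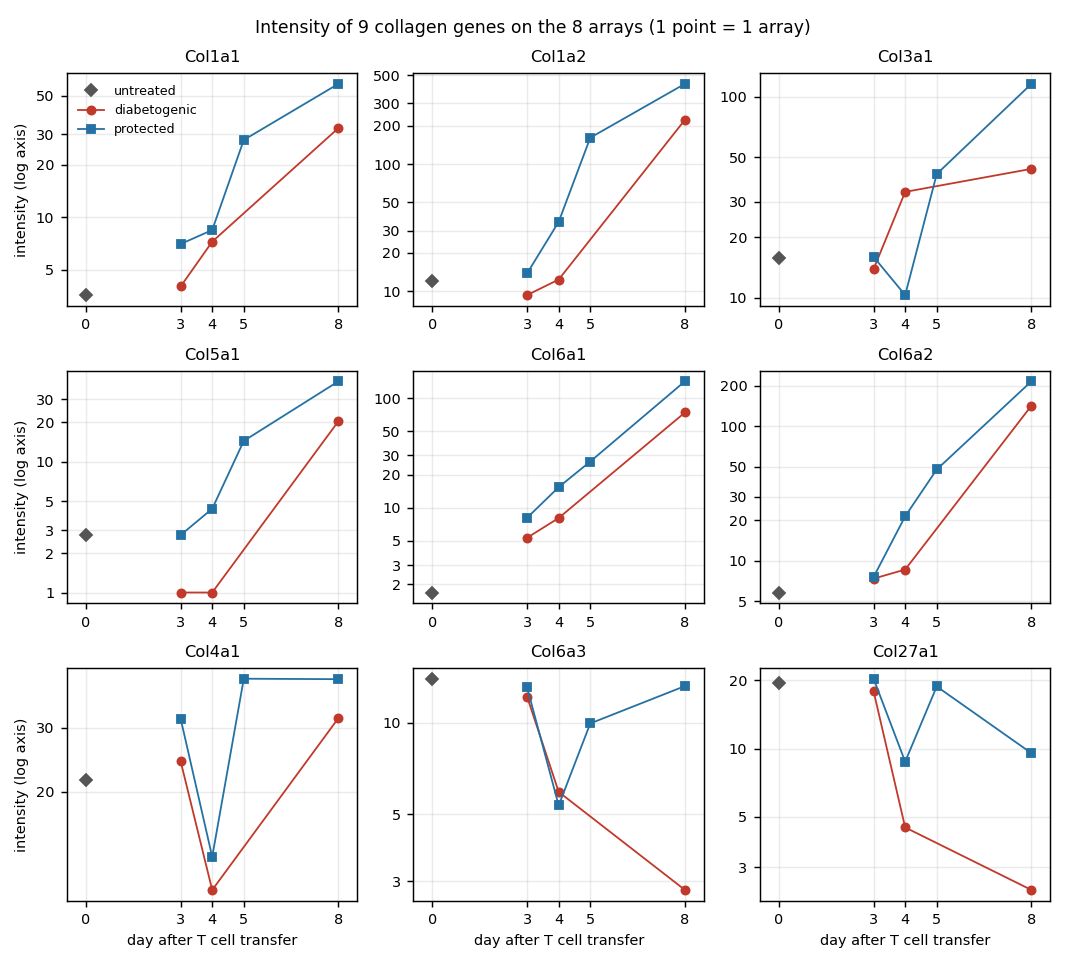
Intensity (log axis, a different range in each panel) of 9 collagen genes against day after T cell transfer; each point is 1 array, diamonds untreated, circles diabetogenic, squares protected, and the diabetogenic line has no point at day 5. The top 6 panels climb to their highest value on the day 8 protected array, while Col4a1, Col6a3 and Col27a1 do not.

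The promoters of genes that moved together are shown so that their different build can be seen beside the shared time course. Promoter sequence in RefSeq (build GRCm38.p6, 250 bases before to 50 after an annotated start) was matched for 33 of the 42 genes. Capitals mark 3 motifs searched on both strands: CCAAT (the CCAAT box), TATAAA (the TATA box) and GGGCGG (the GC box). In all 32851 promoters of the table these occur in 37.4%, 13.6% and 35.7%, and among the 33 collagen genes in 13, 5 and 21 genes. A collagen gene was counted if any of its start sites had a match, so the shares of promoters and the counts of genes are of unlike units. A match describes letters and is not a binding site. Each promoter below reads 5′ to 3′ along its gene, Col1a2 at chr6:4505368-4505667 on the plus strand, Col3a1 at chr1:45311288-45311587 on the plus strand and Col5a1 at chr2:27886175-27886474 on the plus strand.
Col1a2: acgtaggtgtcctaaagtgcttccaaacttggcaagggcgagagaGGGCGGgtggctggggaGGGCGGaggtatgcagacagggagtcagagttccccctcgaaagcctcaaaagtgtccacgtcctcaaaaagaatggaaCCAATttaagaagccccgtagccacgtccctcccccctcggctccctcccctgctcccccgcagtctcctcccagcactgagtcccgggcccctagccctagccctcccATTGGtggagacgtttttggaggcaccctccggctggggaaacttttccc
Col3a1: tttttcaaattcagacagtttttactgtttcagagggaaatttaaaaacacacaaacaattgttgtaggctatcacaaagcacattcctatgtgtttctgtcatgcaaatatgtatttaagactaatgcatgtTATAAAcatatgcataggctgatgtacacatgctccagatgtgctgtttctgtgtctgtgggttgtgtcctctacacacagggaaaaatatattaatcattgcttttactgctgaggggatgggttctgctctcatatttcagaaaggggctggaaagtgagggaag
Col5a1: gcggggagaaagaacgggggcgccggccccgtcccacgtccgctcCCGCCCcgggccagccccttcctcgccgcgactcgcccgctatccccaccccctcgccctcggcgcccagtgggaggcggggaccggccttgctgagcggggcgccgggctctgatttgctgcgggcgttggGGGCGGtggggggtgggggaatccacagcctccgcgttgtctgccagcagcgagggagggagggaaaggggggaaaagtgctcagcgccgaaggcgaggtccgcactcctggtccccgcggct
Col1a2 holds 2 CCAAT and 2 GC box matches, Col3a1 holds 1 TATA match only, and Col5a1 holds 2 GC box matches, so no motif of the 3 is common to these genes in these windows.

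The other fibrillar genes did not share the late increase in both arms. Col5a2, a collagen V chain whose gene lies next to Col3a1 among the protein-coding genes of RefSeq, read 7.15 untreated, 6.17 and 5.42 on day 3, 3.35 and 3.48 on day 4, 11.0 on protected day 5, and 6.38 and 21.8 on day 8. Only its protected arrays on days 5 and 8 exceeded the untreated value. Col27a1, a fibrillar collagen best known from cartilage, went the other way, with 19.5 untreated, 17.9 and 20.3 on day 3, 4.49 and 8.75 on day 4, 18.8 on protected day 5, and 2.38 and 9.54 on day 8. Its untreated, day 3 and protected day 5 arrays formed the high set and the remaining 4 arrays the low one. A second Col27a1 probe set read 8.88 untreated, 12.7 and 7.81 on day 3, 3.84 and 5.64 on day 4, 12.6 on protected day 5, and 4 and 12.5 on day 8. It was low on the same arrays except that of protected day 8. Col11a2, a chain of the fibril-initiating collagen XI, read 4.95 untreated, 4.43 and 8.11 on day 3, and 1.53, 2.85, 2.29, 1.15 and 1.16 on the later arrays (diabetogenic and protected day 4, protected day 5, diabetogenic and protected day 8). Col2a1, Col5a3, Col11a1 and Col24a1 stayed at 12.5 or below on every array.

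Among the microfibrillar genes, those that rose encode the chains α1 and α2 of collagen VI. Col6a1 read 1.69 untreated, 5.33 and 8.11 on day 3, 8.07 and 15.4 on day 4, 26.4 on protected day 5, and 73.9 and 142 on day 8. Every injected array was above the untreated one, and within each of days 3, 4 and 8 the protected array was the higher. Col6a2 read 5.81 untreated, 7.37 and 7.58 on day 3, 8.61 and 21.4 on day 4, 47.7 on protected day 5, and 142 and 216 on day 8, which is 18.1-fold and 27.4-fold over untreated on the same scale as above. Its second probe set gave 8.1 untreated and 82.5 and 136 on day 8, again the 2 highest values.

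Col6a3, the gene of the α3 chain that joins α1 and α2 in the assembled molecule, did not move with them. It read 14.0 untreated, 12.2 and 13.1 on day 3, 5.92 and 5.34 on day 4, 9.96 on protected day 5, and 2.81 and 13.2 on day 8. Its untreated array was its highest and its day 8 diabetogenic array its lowest, whereas that array was the second highest for Col6a1 and Col6a2. Each gene was read by its own probe set, so only the changes and not the levels of the chains can be set side by side. Col6a3 had a single probe set with its symbol. Col6a4 stayed between 2.35 and 6.25. Col6a5 was high on the diabetogenic arrays on days 4 (9.06) and 8 (13.2) and between 1.81 and 3.59 on the other 6.

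Col6a1 and Col6a2 are neighbours among the protein-coding genes of chromosome 10 in RefSeq, both on the minus strand, and their promoters are shown because both genes rose. Col6a1 is at chr10:76725995-76726294, and the first of 2 annotated Col6a2 start sites at chr10:76623355-76623654 (GRCm38.p6).
Col6a1: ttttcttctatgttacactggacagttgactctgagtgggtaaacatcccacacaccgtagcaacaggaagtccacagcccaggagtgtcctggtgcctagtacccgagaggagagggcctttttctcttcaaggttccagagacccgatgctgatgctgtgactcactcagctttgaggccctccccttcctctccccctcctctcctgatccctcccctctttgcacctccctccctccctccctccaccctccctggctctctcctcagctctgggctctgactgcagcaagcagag
Col6a2: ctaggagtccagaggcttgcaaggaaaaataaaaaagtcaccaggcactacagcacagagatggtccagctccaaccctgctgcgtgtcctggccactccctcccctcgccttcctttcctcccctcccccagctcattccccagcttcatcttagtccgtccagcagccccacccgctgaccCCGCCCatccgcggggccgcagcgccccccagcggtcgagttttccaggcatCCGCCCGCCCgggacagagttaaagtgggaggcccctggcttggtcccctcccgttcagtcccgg
The Col6a1 window holds none of the 3 motifs and the Col6a2 window 3 GC box matches, of which 2 overlap.

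No basement membrane gene passed a test in any comparison. Col4a1, the gene of the principal collagen IV chain, read 21.5 untreated, 24.3 and 31.8 on day 3, 10.7 and 13.2 on day 4, 41.0 on protected day 5, and 32.0 and 40.9 on day 8. Both arrays of day 4 were its lowest, and each day 8 array was slightly above the day 3 array of its arm. A dimmer Col4a1 probe set (mean intensity 8.09) was also lowest on day 4 (2.1 and 2.2). It read 10.55 and 13.13 on day 3 but 4.63 and 11.97 on day 8, so each day 8 array was below the day 3 array of its arm. Col4a2, the partner chain, read 5.86 untreated, 7.6 and 10.2 on day 3, 2.06 and 7.27 on day 4, 10.6 on protected day 5, and 7.96 and 9.47 on day 8. The lowest Col4a2 value, like the lowest Col4a1 value, was on the day 4 diabetogenic array, the array with the fewest bright probe sets. These 2 genes are transcribed in opposite directions from starts close together, and their promoter windows overlap by 78 bases at chr8:11312777-11312854 (GRCm38.p6). The overlap, shown on the plus strand, holds 1 GC box match in capitals.
Col4a1 and Col4a2: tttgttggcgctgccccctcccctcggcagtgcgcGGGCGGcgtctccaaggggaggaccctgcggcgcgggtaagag
Over the 8 genes of this type the summed intensity was 45.2 untreated, 53.4 and 61.7 on day 3, 47.7 and 49.98 on day 4, 90.6 on protected day 5, and 75.7 and 81.5 on day 8. The fibrillar sum in the same order was 77.6, 66.9, 85.6, 73.3, 86.7, 296, 354 and 690, and the microfibrillar sum 28.9, 29.9, 35.2, 37.9, 49.0, 90.0, 236 and 378. Col4a5, Col15a1 and Col18a1 were dim, with highest values of 12.9, 10.1 and 9.38. Col4a5 peaked on the day 8 diabetogenic array, while the protected array of that day read 2.37. A second, dimmer Col4a5 probe set (mean intensity 2.17) read 2.32 on the diabetogenic and 2.4 on the protected array of day 8. Col4a6 was lowest on protected day 5 (1.79) and diabetogenic day 8 (1.83), and highest on protected day 4 (8.09). A second Col4a6 probe set was also lowest on protected day 5 (1) and highest on protected day 4 (7.27), but read 4.1 on diabetogenic day 8.

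Among the remaining 18 genes differences were smaller or lay on single arrays. Col8a1, a short-chain collagen of vessel walls, went from 3.47 untreated and 1.78 and 1.03 on day 3 to 14.2 and 10.9 on day 4, 10.2 on protected day 5, and 8.25 and 6.83 on day 8. Its step lay between days 3 and 4, not towards day 8, and its other 2 probe sets, with mean intensities of 3.89 and 2.81, differed by 0.09 and -0.68 between days 8 and 3 (log2). Col12a1, a FACIT collagen of dense connective tissue, read 3.06 untreated, 3.05 and 1.72 on day 3, 8.57 and 13.5 on day 4, 5.76 on protected day 5, and 18.4 and 4.81 on day 8. Its other probe sets, with mean intensities of 2.86, 2.78 and 2.32, read 3, 2.68 and 1.44 on the day 8 diabetogenic array. They differed by 0.86, 0.44 and 0.08 between days 8 and 3 (log2). Col10a1, known from hypertrophic cartilage, never passed 6.38. Col7a1, the anchoring fibril collagen, kept to 5.96 to 13.8 on all arrays.

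By the probe set that stood for the gene, a few genes were high on the day 8 diabetogenic array alone. Col13a1, a transmembrane collagen of cell adhesion sites, read 17.6 there and 1.11 on the protected array of the same day, with 1.32 to 4.59 elsewhere. Col11a1 read 12.5 against 1.57, Col23a1 9.31 against 1.54, and Col19a1 11.4 against 5.16. Other probe sets gave this order less clearly: an equally bright one of Col19a1 was highest on the day 3 diabetogenic array (10.9, with 6.47 and 3.61 on day 8), and a dimmer one of Col11a1 read 2.94 and 2.37 on day 8 and peaked on protected day 4 (3.69). A second Col23a1 probe set read 9.58 and 1.35 on day 8 but also 5.68 on diabetogenic day 4, and its other probe set lay between 1.73 and 3.94 on all arrays. Col13a1 had a single probe set. Col22a1 had the opposite order, with 2.13 on the diabetogenic and 10.7 on the protected array. Of the 39 tested genes 10 had their highest value on the day 8 diabetogenic array, and 11 on the protected array of that day. The same count was not made over all genes, so whether these counts are unusual is not known. Col9a3 had its highest value, 5.51, on the day 3 diabetogenic array, and Col17a1, a hemidesmosome collagen, lay between 1.25 and 6.06. Col26a1 read 11.2 on the day 4 protected array and 1 to 3.66 on the other 7.

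The rise towards day 8 was tested with limma on log2(intensity + 2.155) over the 6 arrays of days 3, 4 and 8, with arm as a covariate, so that each day has 2 arrays. Between days 8 and 3, 9 of the 39 collagen genes were higher and 2 lower at an adjusted p of 0.05 or less, against a background of 3.78% of all 16396 genes higher and 10.5% lower. The median difference was 0.39 over the collagen genes and -0.03 over all genes. By type, 4 fibrillar genes rose and 2 fell of 11, 2 of 5 microfibrillar genes rose, none of 8 basement membrane genes passed, 1 of 7 FACIT genes rose, none of 3 transmembrane genes passed, and 2 of 5 others rose. The basement membrane genes had a median of 0.37, with 6 of 8 above 0.

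Col1a2 rose by 4.52 ± 0.67 (log2, SE; 23.0-fold, adjusted p 7.09e-05). Col6a2 rose 18.4-fold (4.21 ± 0.59, adjusted p 4.12e-05), Col6a1 11.95-fold (3.58 ± 0.54, 7.8e-05), Col5a1 7.96-fold (2.99 ± 0.43, 5.69e-05) and Col1a1 6.10-fold (2.61 ± 0.49, 0.000542). For these 5 genes both day 8 arrays lay above both day 3 arrays and both day 4 arrays. Col3a1 rose 4.32-fold (2.11 ± 0.64, adjusted p 0.0242). Smaller increases passed for Col8a1 (1.45 ± 0.43, 0.0211), Col12a1 (1.41 ± 0.48, 0.0442) and Col10a1 (1.18 ± 0.41, 0.0498). The 2 genes that fell were Col27a1 (-1.54 ± 0.47, 0.0239) and Col11a2 (-1.31 ± 0.40, 0.0238). Col6a3 gave -0.76 ± 0.48 (0.315), Col4a1 0.35 ± 0.55 (0.727) and Col4a2 -0.02 ± 0.45 (0.988).

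Leaving out either day 3 array left 5 calls, namely Col1a1, Col1a2, Col5a1, Col6a1 and Col6a2, while the calls over all genes went from 2337 to 341 (without the diabetogenic) and 1164 (without the protected array). Without the day 8 protected array, 15 genes passed and Col3a1 (1.09 ± 0.91, adjusted p 0.419), Col10a1 (0.0819) and Col11a2 (0.0998) did not, and without the day 8 diabetogenic array, 10 passed and Col10a1, Col12a1 and Col27a1 did not (0.0696, 0.522 and 0.326); all genes then gave 3434 and 1429 calls. Col4a5 passed only without the protected and Col18a1 only without the diabetogenic array of that day, the only basement membrane genes in any of these fits. The 5 genes passed in all 6 of them, in which the model has a single residual degree of freedom of its own beside the spread borrowed from other genes.

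Between days 8 and 4, which lie on the same side of the spiked control division, the same 5 genes were the only collagen genes to pass. The background was 0.909% of all genes higher and 0.238% lower, with a median over all genes of 0.14 and over collagen genes of 0.35. The increases were 13.4-fold for Col1a2 (3.74 ± 0.67, adjusted p 0.00362), 11.2-fold for Col6a2 (3.48 ± 0.59, 0.00223), 7.82-fold for Col6a1 (2.97 ± 0.54, 0.00412), 6.90-fold for Col5a1 (2.79 ± 0.43, 0.00105) and 4.60-fold for Col1a1 (2.20 ± 0.49, 0.0193). Col3a1 (1.80 ± 0.64, 0.169), Col5a2 (1.36 ± 0.46, 0.153), Col4a1 (1.44 ± 0.55, 0.209) and Col20a1 (1.29 ± 0.42, 0.134) did not pass. Col8a1 was at -0.59 ± 0.43 (0.569) and Col12a1 at -0.11 ± 0.48 (0.941). The count was 5 to 8 when any 1 of the 6 arrays was left out, with the 5 genes in every fit; the 8 came without the day 8 protected array, where the calls over all genes went from 188 to 1051. Those calls were 994 without the day 4 protected array, with 5 collagen genes, and 127 to 273 in the other 4 fits. After quantile normalization Col1a1 (adjusted p 0.0972) and Col6a1 (0.0671) did not pass, nor did Col1a1 with cyclic loess (0.0502), and the count was 0 when all probe sets of a gene were averaged, a setting under which no gene at all passed. Both comparisons use the same day 8 arrays, so they are not independent.

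**Figure D3:**
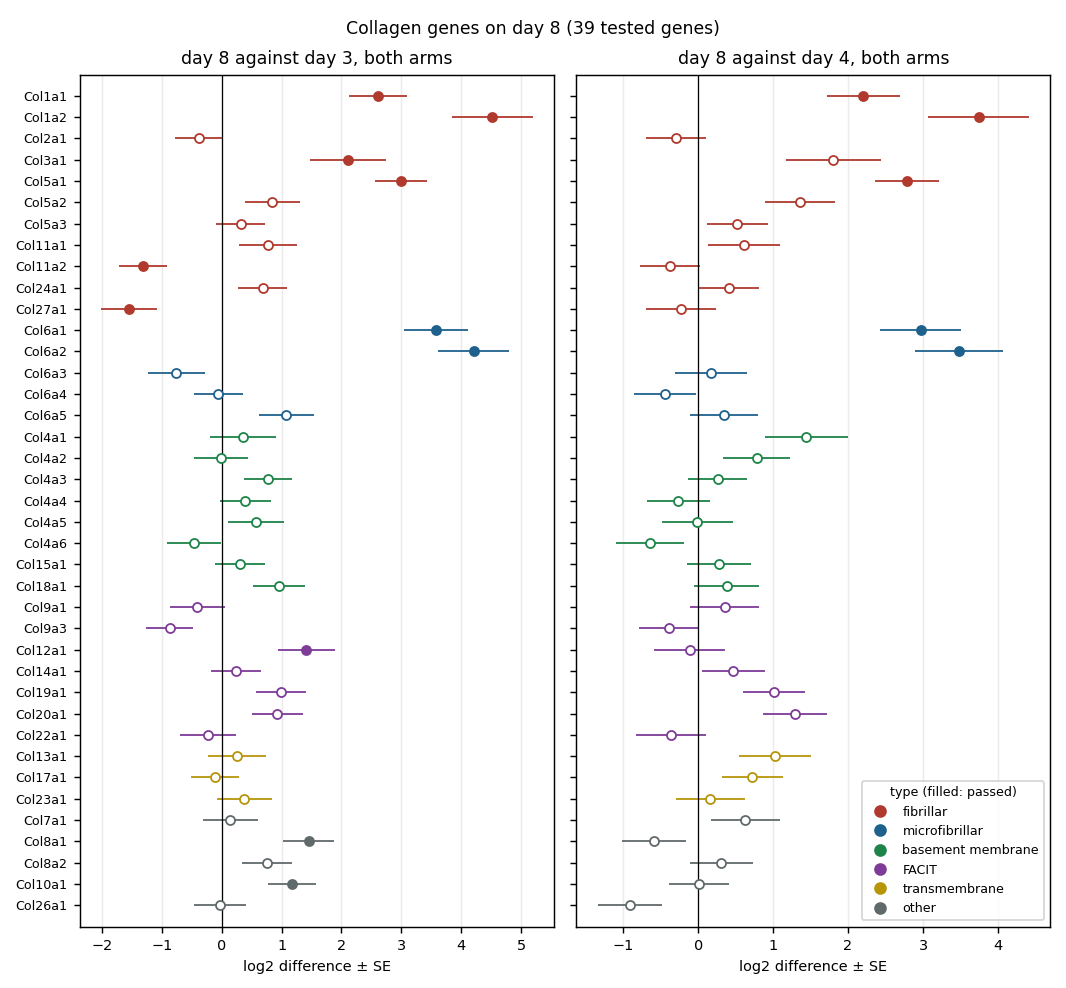
Log2 difference with its SE for the 39 tested collagen genes, day 8 against day 3 (left) and day 8 against day 4 (right), over both arms; colour gives the type and filled points passed at an adjusted p of 0.05. Col1a1, Col1a2, Col5a1, Col6a1 and Col6a2 are filled on both sides, and no basement membrane gene is filled.

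The order of the arrays from day 4 on was graded in the protected arm, the only arm with a day 5 array. From day 4 to day 5 10 of 39 collagen genes gained 2-fold or more and 3 lost as much, against 18.8% and 7.48% of all genes, with no test since each is 1 array. Col1a2 gained 2.13 on the log2 scale, Col3a1 1.80, Col1a1 1.499, Col5a1 1.35, Col6a2 1.08 and Col6a1 0.70. From day 5 to day 8 the order differed, with Col6a1 gaining 2.34 and Col6a2 2.13, and Col3a1, Col1a2, Col5a1 and Col1a1 gaining 1.45, 1.40, 1.39 and 1.02. The collagen VI chains thus had the larger late steps and the fibrillar chains the larger early ones, a difference that these single arrays do not allow to be tested.

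A straight line over the 7 injected arrays ranked these 6 genes as the difference between days 8 and 3 did. It includes the day 3 and day 8 arrays by which the 6 were chosen, so this likeness is a description and not a test. Col1a2 increased by 0.91 ± 0.18 per day (log2; adjusted p 0.350), Col6a2 by 0.85 ± 0.16 (0.294), Col6a1 by 0.72 ± 0.14 (0.350), Col5a1 by 0.63 ± 0.11 (0.268), Col1a1 by 0.53 ± 0.13 (0.406) and Col3a1 by 0.43 ± 0.17 (0.534). No collagen gene and no other gene passed in this fit (0.0% of all genes), although 8 collagen genes upwards and 1 downwards had an unadjusted p under 0.05 in limma, as had 745 and 742 of all genes. Without both day 3 arrays Col5a1 and Col6a2 passed, and without the day 4 diabetogenic array Col1a2 and Col6a2 did.

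The arms were compared over the same 6 arrays with day as a block, to ask whether interferon-γ blockade altered collagen expression. No collagen gene passed; of all genes 0.0122% were higher and 0.0915% lower in the diabetogenic arm. At an unadjusted p under 0.05 limma counted 2 collagen genes higher and 2 lower, beside 506 higher and 955 lower among all 16396 genes. The lowest adjusted p among the collagen genes was 0.489. The collagen median was -0.22 (diabetogenic minus protected) with 18 genes above 0 and 21 below, and the median over all genes was -0.07. The fibrillar genes had a median of -0.46 with 9 of 11 below 0, the microfibrillar genes -0.54 with 3 of 5 below 0, and the basement membrane genes 0.05 with 3 of 8 below 0. Among the late-rising genes the estimates were -0.92 ± 0.55 for Col1a2 (adjusted p 0.621), -0.88 ± 0.35 for Col5a1 (0.500), -0.72 ± 0.44 for Col6a1 (0.630), -0.59 ± 0.48 for Col6a2 (0.726), -0.52 ± 0.40 for Col1a1 (0.711) and -0.01 ± 0.52 for Col3a1 (0.998). The largest difference the other way was Col13a1 at 0.997 ± 0.39 (0.489), and Col26a1 was at -0.80 ± 0.35 (0.521).

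By single days the gap between arms was small on day 3 and wider afterwards, among collagen genes and among all genes alike. On day 3 no collagen gene differed 2-fold or more, against 1.4% of all genes higher and 0.506% lower in the diabetogenic array. On day 4, 2 were higher and 6 lower, against 6.0% and 14.2%, and on day 8, 6 were higher and 6 lower, against 9.39% and 14.1%. By the probe set that stood for each gene, all 6 late-rising genes were lower on the diabetogenic than on the protected array of day 8. The gaps (log2) were 1.36 for Col3a1, 0.93 for Col1a2 and 0.94 for Col5a1. They were 0.93 for Col6a1, 0.80 for Col1a1 and 0.59 for Col6a2. Dim second probe sets of Col1a1 (5.14 diabetogenic, 2.05 protected) and Col3a1 (6.54 and 5.52) had the reverse order on day 8. The other probe sets of Col1a2, Col5a1 and Col6a2 kept the order. The largest gaps were in other collagen genes, with Col13a1 2.60 and Col11a1 1.98 higher, and Col6a3 1.63 and Col22a1 1.58 lower on the diabetogenic array. For the 6 late-rising genes the order on the top 3 arrays was the same, with protected day 8 above diabetogenic day 8 above protected day 5. These genes were chosen for high values on day 8 against day 3, so the high place of the day 8 arrays is no test.

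**Figure D4:**
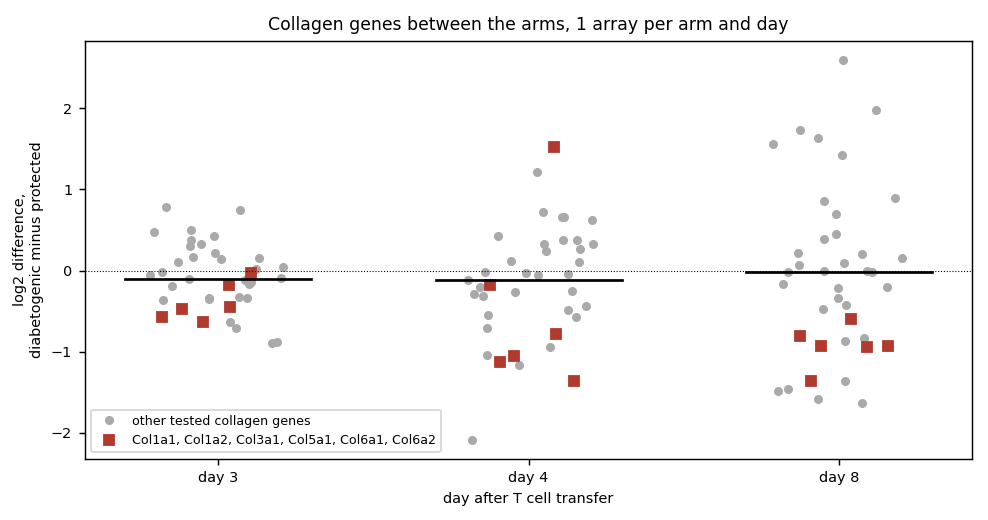
Log2 difference between the diabetogenic and the protected array of the same day (vertical axis) for the 39 tested collagen genes on days 3, 4 and 8; each point is 1 gene, shifted sideways at random, and the bar is the median. The 6 late-rising genes (squares) lie below 0 on every day except Col3a1 on day 4. The spread of the other genes widens after day 3, as does the share of all genes that differ 2-fold or more.

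No collagen gene and no other gene passed in the test of the difference in slope between the arms (0.0% in limma; 3 collagen genes and 250 of all genes had an unadjusted p under 0.05 for a steeper diabetogenic slope, none and 76 for a shallower one). The steepest were Col11a1 at 0.56 ± 0.16, Col13a1 at 0.53 ± 0.20 and Col23a1 at 0.46 ± 0.16 per day, all with an adjusted p of 1. Against the untreated array, with all days of an arm pooled, no gene passed in either arm (0.0% in both). Col6a1 had the largest collagen differences there, 2.23 ± 1.39 in the diabetogenic arm (adjusted p 0.887) and 2.93 ± 1.35 in the protected arm (1). One collagen gene in each arm was higher at an unadjusted p under 0.05 and none lower, beside 92 and 158 higher and 350 and 207 lower among all genes. Both comparisons use the same untreated array. Neither fit had a term for day, so change over the days was averaged into the difference and counted as error. They therefore cannot decide whether islets of late days differed from untreated ones. On day 8 Col6a1 was 19.8-fold (diabetogenic) and 37.5-fold (protected) over untreated, on the scale of the fits. Of the 39 tested collagen genes, 13 and 9 were 2-fold or more higher on these arrays and 3 and 1 lower, without a test.

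The partners of collagen were read from lists of genes by role. Counts in these lists and in those of cell types stand against the shares over all genes. These were 3.78% higher and 10.5% lower between days 8 and 3, and 0.909% and 0.238% between days 8 and 4. Between the arms they were 0.0122% higher and 0.0915% lower in the diabetogenic arm. Of 13 tested genes for proteins that coat and space collagen fibrils, 3 were higher and none lower between days 8 and 3, and 4 were higher and none lower between days 8 and 4. Biglycan (Bgn), a small proteoglycan that binds collagen, had intensities of 46.5 untreated, 35.1 and 30.5 on day 3, 13.7 and 34.4 on day 4, 106 on protected day 5, and 436 and 492 on day 8. Only the arrays of days 5 and 8 exceeded the untreated one, and the arms were close on day 8. Bgn rose by 3.74 ± 0.80 from day 3 (adjusted p 0.00191) and by 4.27 ± 0.80 from day 4 (0.00517). Fibromodulin (Fmod), which regulates fibril diameter, rose by 1.82 ± 0.43 (0.00484) and 2.14 ± 0.43 (0.00914). Dermatopontin (Dpt), a matrix protein of fibroblasts, rose by 1.54 ± 0.44 (0.0168) and 2.58 ± 0.44 (0.00223), and was at 1.43 and 1.42 on the arrays of day 4 after 9.18 in untreated islets. Sparc, a collagen-binding secreted protein, passed only from day 4 (2.05 ± 0.52, 0.0478); the day 8 protected array read 51.4 and the diabetogenic one 16.6. Dpt and Sparc were named after their values were seen, because they passed.

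Fn1, fibronectin, was the only member of that list that passed between the arms, at -2.10 ± 0.40 (adjusted p 0.0156). It read 29.6, 30.6, 54.6 and 23.9 on the protected arrays on days 3, 4, 5 and 8, and 3.36, 5.8 and 5.61 on the diabetogenic arrays on days 3, 4 and 8, beside 3.73 untreated. The arms did not overlap from day 3 on, and time made no difference that passed (0.11 ± 0.48 between days 8 and 3, adjusted p 0.919). Timp1, an inhibitor of matrix metalloproteinases, showed the same split, with 34.5, 100, 152 and 74.7 on the protected arrays, 7.32, 5.18 and 8.48 on the diabetogenic ones and 2.28 untreated (-2.87 ± 0.47, adjusted p 0.00253).

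Of 8 collagen-degrading enzymes and inhibitors tested, 2 were higher between days 8 and 3 and 1 between days 8 and 4. Mmp2, a gelatinase made by stromal cells, read 5.93 untreated, 3.19 and 4.48 on day 3, 2.43 and 1.78 on day 4, 16.3 on protected day 5, and 32.7 and 36.9 on day 8. It rose by 2.63 ± 0.45 from day 3 (adjusted p 0.000232) and by 3.12 ± 0.45 from day 4 (0.000639). Timp2, an inhibitor that also takes part in activating Mmp2, rose by 1.81 ± 0.59 from day 3 (0.0366) and was 2.18 ± 0.59 from day 4 (0.0626). Of 24 tested genes for collagen synthesis and crosslinking none passed between days 8 and 4. Between days 8 and 3, 1 was higher and 3 were lower, near the shares over all genes (3.78% and 10.5%). The higher one was Pcolce, an enhancer of procollagen cleavage, at 2.13 ± 0.54 (0.00777), with 10.5 untreated, 9.22 and 8.3 on day 3, 24.2 and 19.7 on day 4, 21.0 on protected day 5, and 43.5 and 47.4 on day 8. The 3 lower ones were Plod1, Crtap and Mia3. Lox, which crosslinks fibrils, read 17.1 on the day 8 diabetogenic array and at most 3.75 on the others (1.22 ± 0.44 between days 8 and 3, 0.0605).

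**Figure D5:**
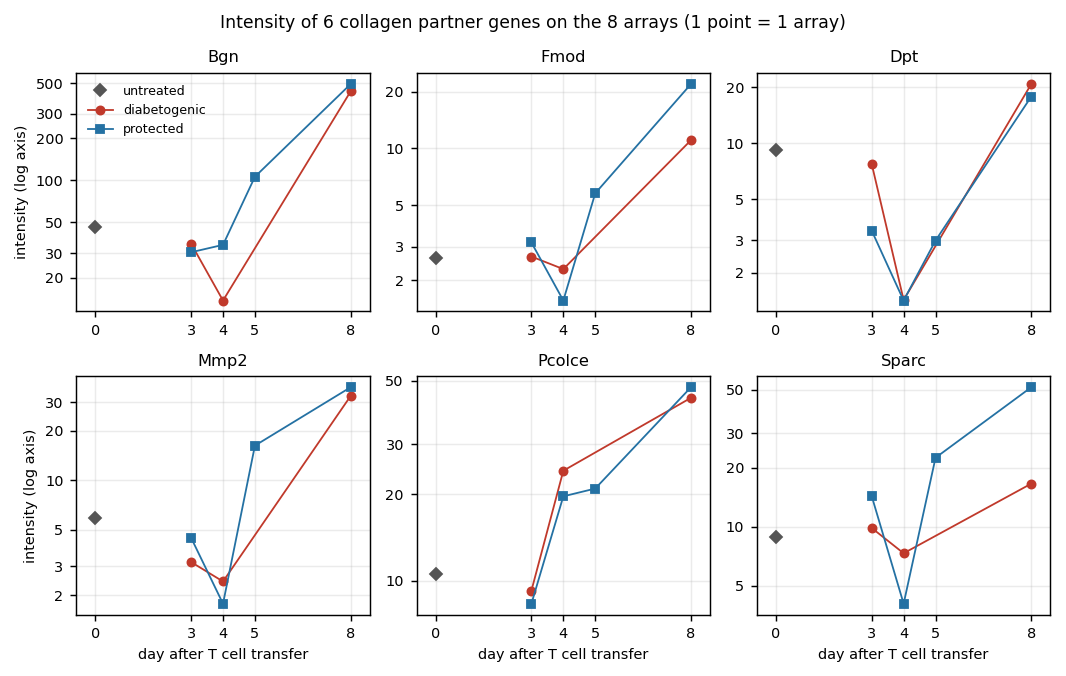
Intensity (log axis) of 6 genes for collagen-binding or collagen-processing proteins against day after T cell transfer, with 1 point per array as in the plot of the 9 collagen genes. All 6 are highest on a day 8 array; the arms lie close together on day 8 for Bgn, Mmp2 and Pcolce and apart for Sparc and Fmod.

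Of 10 basement membrane partners tested (laminins, nidogens, perlecan and others) none passed in any of these comparisons, with medians of 0.02 between days 8 and 3 and -0.07 between days 8 and 4. The largest changes per day in that list were for Agrn at -0.15 (adjusted p 0.707) and Lama4 at 0.12 (0.713). Of 8 collagen receptors 1 passed, Ddr1, a receptor kinase for collagen on epithelial cells, which fell by 1.82 ± 0.43 between days 8 and 3 (0.00442). It read 19.2 and 20.2 on day 3, 2.27 and 1.59 on day 4, and 4.38 and 3.69 on day 8. Its drop thus lay between days 3 and 4, across the spiked control division, and not towards day 8. Itga1, an integrin chain for collagens I and IV, was 0.79 between days 8 and 3 (0.243). None of 9 genes of transforming growth factor β signalling and fibroblast activation passed between days or arms. Acta2, smooth muscle actin, read 63.8 on the protected and 6.8 on the day 8 diabetogenic array, and 8.92 untreated; Tgfbr1 was -1.24 between days 8 and 3 (0.0626).

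Markers of cell types moved with the days and arms, and their part in the collagen results was not tested. Of 11 fibroblast and stellate cell markers 1 was higher between days 8 and 3 (Dpt) and 2 between days 8 and 4 (Dpt, and Thy1 at 1.99 ± 0.51, adjusted p 0.0485), with medians of 0.42 and 0.71. Their summed intensity was 182 untreated, 301 to 1022 in the diabetogenic and 340 to 1327 in the protected arm, most of it Vim (58.8 untreated, 179 to 1195 afterwards). By direction, 7 of the 11 were above 0 between days 8 and 3 and 10 between days 8 and 4. Whether Thy1 and Vim were read from fibroblasts and stellate cells alone, or also from infiltrating cells, was not tested. Fap read 6.36 and 6.16 on the arrays of day 8 against 1.84 untreated, and Pdgfrb 10.1 and 4.35 against 2.8. Dcn was 1.91 and 9.2 on the arrays of day 8 against 11.8 untreated, Lum 7.25 and 1.98 against 3.51, and Pdgfra 7.23 and 4.93 against 6.69, at the floor of 1 on both arrays of day 4. Of 8 macrophage markers 1 was higher between days 8 and 3 (Itgam, 1.31, adjusted p 0.0252), 1 between days 8 and 4 (Lyz2, 3.64, 0.00501) and 1 lower in the diabetogenic arm (Cd163, -1.89, 0.0233). Their sum was 45.3 untreated, 145 to 1247 in the diabetogenic and 210 to 1479 in the protected arm, with Cd163 at the floor on the day 8 diabetogenic array.

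Acinar markers, 3 of 8 of which were lower on day 8 than on day 3 (such as Cela1 and Cel), summed to 1281 untreated, 152 to 1176 in the diabetogenic and 659 to 2880 in the protected arm, and all 8 were lower in the diabetogenic arm with none passing. Beta cell markers were lower on day 8 than on day 3 for 4 of 6 (such as Slc2a2, -3.82, and Slc30a8, -3.46), beside the fall of Col27a1 and Col11a2; none of the 6 passed between days 8 and 4. Their sum, mostly Ins2, was 5318 untreated, 3810 to 5533 in the diabetogenic and 4659 to 7295 in the protected arm. None of 6 endothelial, 4 Schwann cell, 4 duct and 5 T cell markers tested passed between days or arms; their sums were 28.1 to 78.3, 15.2 to 26.97, 37.0 to 97.5 and 12.1 to 41.9 over all arrays. Kdr and Emcn of the endothelial list, Krt19 and Sox9 of the duct list, and Gfap of the Schwann list touched the floor of 1 on at least 1 array, while Sox10, Cd3e and Cd4 did not. In the endothelial list medians were -0.22 between days 8 and 3 and 0.67 between days 8 and 4.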

How the data were processed

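The authors' deposited table holds linear intensities of 45101 probe sets on 8 arrays; their summarisation and scaling are not stated in the sources used here. Islet RNA was column-purified with DNase, pooled over 5 mice and amplified, per the labels' protocols. Names came from GEO's platform annotation, with 932 probe sets of several symbols and 9211 of none left out, as were control probe sets. Probe sets at or above the array median on at least 2 arrays were kept, and the brightest on average per gene was tested (16396 genes). Differences were fitted on log2(intensity + 2.155), the pseudocount being the median of the arrays' percentile 25, with limma 3.58.1 in R 4.3.3 (variance trend, Benjamini-Hochberg over all genes, threshold 0.05). In the fit of days and arms a gene's own spread has 2 residual degrees of freedom, against 27.08 from the trend. Array medians differed by at most 0.21 (log2), so no scaling was added. Fits were checked on simulated data. Named are collagen genes that passed a test, the 12 brightest on average and the 3 largest differences per direction. In other lists the rule was those passing for arm or slope, otherwise the 2 steepest. Further genes there were named outside this rule, such as Sparc, Thy1, Itgam, Plod1, Crtap, Mia3, Fap, Pdgfrb, Dcn, Lum and Pdgfra. Collagen genes and lists were chosen with earlier results of these data known. Precision is limited by the number of arrays. Alternatives covered pseudocount, scaling, filter, probe set rule, variance model, block and arrays left out.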

Additional observations from a re-analysis of the deposited data

Results flagged for a closer look

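Col26a1 stood apart within the protected arm: its day 4 array read 11.2 and the arrays of days 3, 5 and 8 read 1.54, 1 and 1.51. The gap to the nearest of the others was 0.891 of the whole range on the log2 scale, above Dixon's critical value for 4 samples. Chance gives such a gap in about 1 of 20 groups, and 39 genes were looked at in this arm. The second Col26a1 probe set read 2.98 on that array and 1.38 to 4.43 on the other 7. The arrays differ in day, so the gap is no measure of replicate error.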

How the results depend on the processing

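The 5 genes that rose against both day 3 and day 4 (Col1a1, Col1a2, Col5a1, Col6a1 and Col6a2) passed between days 8 and 3 under every tested alternative, and none of the called collagen differences changed sign. The median over all genes did: between days 8 and 3 it was -0.030 as reported, 0.0039 with cyclic loess, 0.0025 with all probe sets averaged, 0.016 without a filter and 0.013 without the day 3 diabetogenic array, and between days 8 and 4 it was 0.14 as reported and -0.0025 with cyclic loess. Between days 8 and 3 the count of collagen genes was 11, with 6 after quantile normalization and 7 with all probe sets averaged, and 5 to 15 when each of the 6 arrays was left out in turn, an alternative chosen after seeing the data. Between days 8 and 4 it was 5, with 3 after quantile normalization, 0 with all probe sets averaged and 5 to 8 with an array left out. The change per day went from 0 to 4 genes with cyclic loess, to 2 without the variance trend, to 2 without both day 3 arrays and to 0 to 2 with an array left out. Between arms, between slopes and against the untreated array the count stayed at 0 under all alternatives run. Of all genes called between days 8 and 3, 26.5% were higher as reported and 46.2% with cyclic loess, and between days 8 and 4 79.3% as reported, 65.9% with quantile normalization and 53.2% with cyclic loess; the collagen calls between days 8 and 4 were higher under all 3. The choice of probe set by mean log2 value, also added later, gave 11 and 5. The labels give no replicate numbers; the arms were paired by day in the reported fit, and the fit without that day block also called 0 genes. The causes were not tested. Dim signal limits the result: 26 of 39 genes stayed below 4 times the array median.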
